A study of Arabidopsis thaliana with 4 samples.

Results

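The type-A ARABIDOPSIS RESPONSE REGULATOR (ARR) genes were followed in shoot apices of Arabidopsis thaliana through 8 probe sets, 1 for each gene, out of 22746 on the array: 263236_at for ARR4, 252374_at for ARR5, 247406_at for ARR6, 259466_at for ARR7, 266372_at for ARR8, 251665_at for ARR9, 262212_at for ARR15 and 266078_at for ARR16. They were chosen as members of this gene family but are not all of it. Other type-A genes had no named probe set and were not followed. The 4 groups were as2-1 mutants given 10-hydroxycamptothecin (10H-CPT), as2-1 mutants given DMSO, wild-type Col-0 given 10H-CPT and, as untreated wild type, Col-0 with DMSO alone. The mutant carries an allele of Asymmetric Leaves2 (AS2) in the Col-0 background. AS2 is a nuclear protein that acts with AS1 in leaf polarity and in keeping class I KNOX meristem genes off in leaf primordia. 10H-CPT inhibits DNA topoisomerase I (TOP1) and was dissolved in DMSO; the labels give no dose. All plants grew on agar for 14 days under 16 hours of light and 8 hours of dark, and apices bearing leaf primordia were taken. Each group was measured on 1 array, so no difference between 2 arrays has a replicate check or an error of its own.

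Cytokinin is sensed by histidine kinase receptors, and the signal passes through histidine phosphotransfer proteins to the type-B ARRs, which are transcription factors. Type-A ARR genes are primary targets of the type-B ARRs and are induced rapidly by cytokinin, so their transcripts are widely read as a measure of cytokinin response. The proteins they encode consist mainly of a receiver domain, lack a DNA-binding domain and dampen the pathway as negative feedback. The family falls into sister pairs, among them ARR5 with ARR6, ARR7 with ARR15, and ARR8 with ARR9. In the meristem, the homeodomain protein WUSCHEL is known to repress ARR5, ARR6, ARR7 and ARR15.

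Names of 2 members, ARR15 and ARR16, stand in the platform annotation; the other 6 rest on the list that defined the members, and all 8 are symbols or synonyms in RefSeq, where ARR8 bears the symbol RR3. Median signals of the arrays lay between 86.0 and 88.3. Signals below a floor of 46.6, the 40th percentile of all signals, were not ordered, and where just 1 of the signals in a ratio was below it, the ratio is a lower bound ("at least"). ARR4, ARR5, ARR7 and ARR9 lay above the floor on all 4 arrays. ARR8 lay above it on 3 arrays, ARR6 and ARR15 on 2 arrays each, and ARR16 on 0. Signals of different probe sets are not comparable as levels. In these bulk samples, more cells of a type and more RNA per cell cannot be told apart. Of the apex markers, CLV3 was the only one with a named probe set, and its signals were 1.1 and 5.5 in as2-1 on 10H-CPT and DMSO, against 7.9 and 15.0 in Col-0, all below the floor. The root gene EXPA7 was also below it, at 2.7 to 9.2. The labelled tissue was therefore not checked further, and AS2 and the TOP1 genes had no named probe set by which the groups could be checked.

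**Figure D1:**
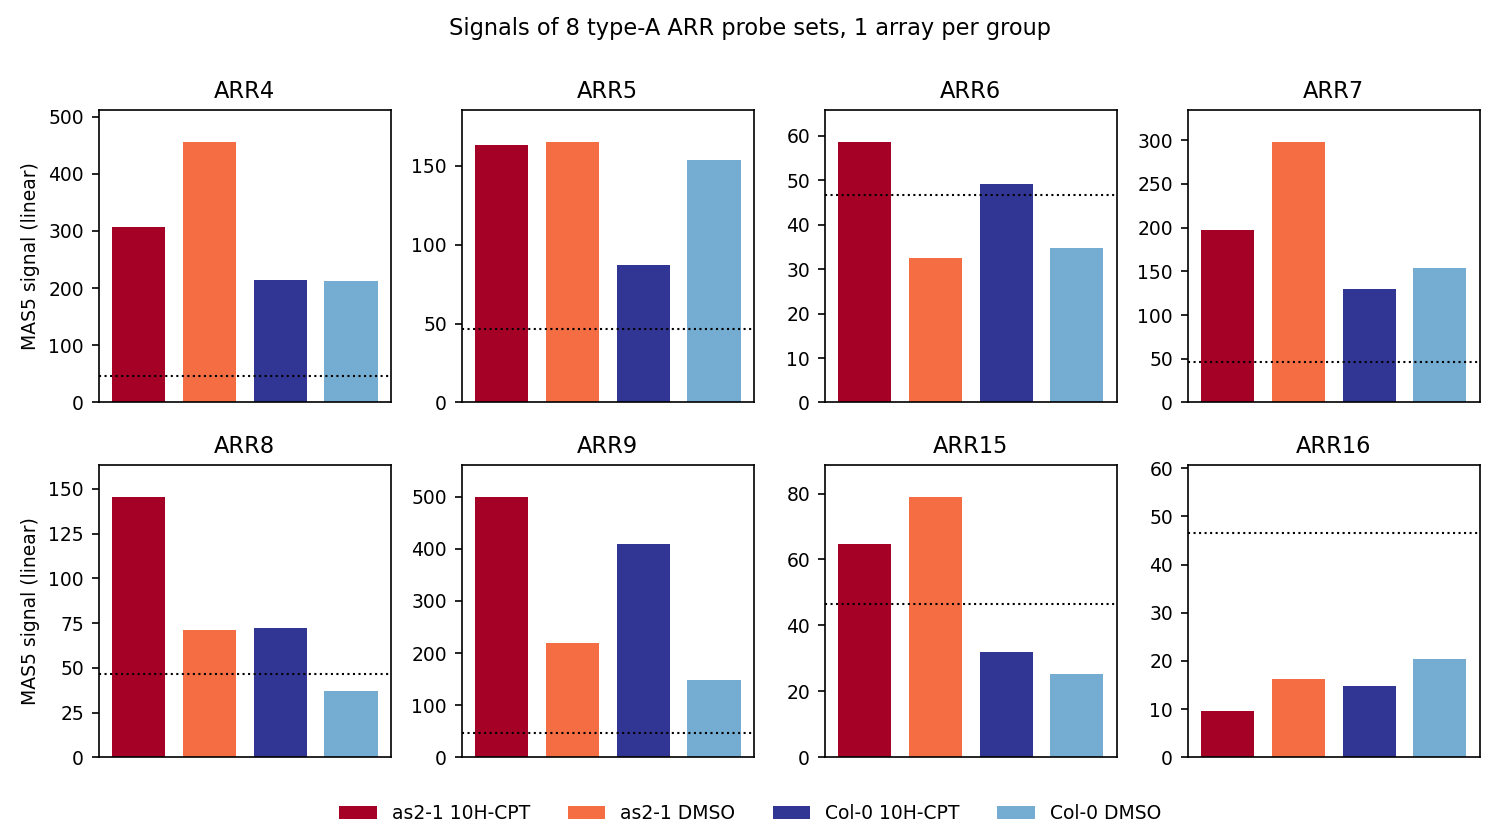
Deposited MAS5 signals (linear, y axis; each panel has its own scale) of the 8 probe sets, with 1 bar per array and the dotted line at the floor of 46.6. ARR4, ARR7, ARR15 and, narrowly, ARR5 are higher on both as2-1 arrays than on both Col-0 arrays. ARR9, ARR6 and, narrowly, ARR8 are higher on both 10H-CPT arrays than on both DMSO arrays. ARR16 is below the floor on all 4.

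The first question was how the type-A ARR transcripts differed in as2-1 apices. ARR4, ARR5, ARR7, ARR8, ARR9 and ARR15 had higher signals in as2-1 than in Col-0 in both treatments. Where both signals were above the floor, the factor ran from 1.08 for ARR5 on DMSO to 2.15 for ARR4 on DMSO. The ratios of ARR15, and that of ARR8 on DMSO, have a lower bound only, and ARR15 passed the floor only through as2-1. ARR6 gave no ratio on DMSO, and the signals of ARR16, all below the floor, were lower in as2-1. Among all probe sets above the floor on every array, as ARR4, ARR5, ARR7 and ARR9 were, 29.4% were higher in as2-1 in both treatments. The mutant and wild-type arrays on DMSO share no array with those on 10H-CPT. When an additive model of genotype and treatment was fitted with limma across the array, no member passed the threshold for genotype.

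ARR4 encodes a regulator that is known to bind phytochrome B and so links cytokinin with red-light signalling. Its signals were 307.2 on 10H-CPT and 456.4 on DMSO in as2-1, against 215.0 and 212.4 in Col-0. Both mutant arrays were above both wild-type arrays, which were nearly level. ARR4 was higher in as2-1 by a factor of 1.43 on 10H-CPT and 2.15 on DMSO. A change as large as that on DMSO was reached by 0.832% of the 14069 probe sets measured on DMSO. For the change on 10H-CPT the share was 10.5% of those measured on 10H-CPT.

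ARR7 and ARR15 are sister genes expressed in the shoot meristem, where their loss or repression is known to affect meristem size and stem-cell gene expression. ARR7 had signals of 197.4 on 10H-CPT and 298.3 on DMSO in as2-1, against 129.8 and 154.0 in Col-0. As for ARR4, both as2-1 signals were above both Col-0 signals, and as2-1 on DMSO had the highest signal. The share of all probe sets with such a separation was not counted. The excess in as2-1 was 1.52-fold on 10H-CPT and 1.94-fold on DMSO, just under the 2-fold threshold. ARR15 had 64.7 on 10H-CPT and 79.1 on DMSO in as2-1, against 32.0 and 25.2 in Col-0. Both wild-type signals were below the floor, so the excess of ARR15 in as2-1 was at least 1.39-fold on 10H-CPT and at least 1.70-fold on DMSO. This gene passed the floor only through as2-1, so its direction could not have come out otherwise.

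ARR5, whose promoter is a common cytokinin reporter, had 163.2 on 10H-CPT and 165.4 on DMSO in as2-1, against 87.0 and 154.0 in Col-0. Col-0 on 10H-CPT was low, and the other arrays were close together. The excess of ARR5 in as2-1 was therefore 1.87-fold on 10H-CPT and 1.08-fold on DMSO. Its sister gene ARR6 had 58.7 on 10H-CPT and 32.5 on DMSO in as2-1, against 49.1 and 34.8 in Col-0. The DMSO signals of ARR6 were below the floor in both genotypes and give no ratio, while on 10H-CPT it was 1.19-fold higher in as2-1.

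ARR8 and ARR9 form a sister pair that is known to be induced less strongly by cytokinin than ARR5 or ARR6. ARR8 had 145.7 on 10H-CPT and 71.1 on DMSO in as2-1, against 72.3 and 36.9 in Col-0. The treated mutant had the highest signal, and untreated wild type was below the floor. The excess of ARR8 in as2-1 was 2.01-fold on 10H-CPT and at least 1.53-fold on DMSO. That 2-fold call was marginal: the log2 difference of 1.01 was 0.98 after quantile normalization and 0.87 on the log2(signal + 16) scale. Among probe sets with a mean signal between 46.6 and 137.3, as that of ARR8, 5.14% differed by 2-fold or more between the genotypes on 10H-CPT, in either direction. ARR9 had 500.4 on 10H-CPT and 218.7 on DMSO in as2-1, against 409.2 and 147.7 in Col-0, and was 1.22-fold and 1.48-fold higher in as2-1. For ARR9 the treatments, not the genotypes, separated the arrays.

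Counted at 2-fold with the floor used here, ARR8 was the only member past the threshold upward in as2-1 on 10H-CPT. So were 2.69% of measured probe sets. On DMSO ARR4 was the only member past it, as were 1.04% of probe sets. No member was past the threshold downward in as2-1 in either treatment, where 1.57% of probe sets were on 10H-CPT and 1.09% on DMSO. ARR15 entered these counts only as a lower bound, since its Col-0 signals were set to the floor. With the lower floor (20th percentile) ARR15 was past 2-fold upward in both treatments, at 1.01 on 10H-CPT and 1.65 on DMSO (log2). Its differences on the log2(signal + 16) scale were 0.75 and 1.21. On the log2(signal + 16) scale, which needs no floor, the median difference over all 8 members was 0.52 on 10H-CPT and 0.62 on DMSO. Over all 22746 probe sets it was close to 0 on 10H-CPT and 0.016 on DMSO. Of the 4 members above the floor on all arrays, 4 were higher in as2-1 by any amount in both treatments. Among all 12717 probe sets that cleared the floor on every array, 29.4% were. On the log2(signal + 16) scale, 6 of the 8 were higher in both treatments, against 29.4% of all 22746 probe sets. On that scale ARR16 was lower in as2-1 in both treatments, as were 26.6% of all probe sets. Its difference was -0.27 on 10H-CPT and -0.17 on DMSO (log2), and that of ARR6 was 0.20 on 10H-CPT and -0.066 on DMSO. Signals of ARR16, 9.7 on 10H-CPT and 16.3 on DMSO in as2-1 against 14.9 and 20.3 in Col-0, were all far below the floor.

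**Figure D2:**
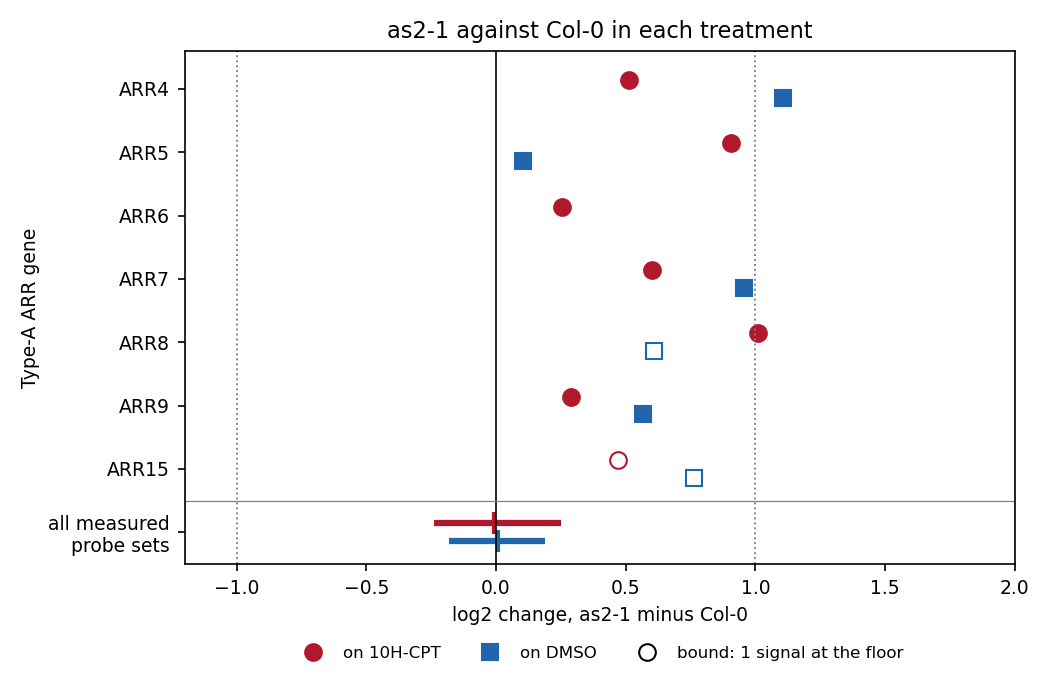
Difference between as2-1 and Col-0 on the log2 scale (x axis) for the 7 type-A ARR genes above the floor on some array, on 10H-CPT (circles) and on DMSO (squares). Open symbols are lower bounds with 1 signal at the floor, dotted lines mark 2-fold, and the lowest row gives the median and quartiles of all measured probe sets. Every plotted difference lies above 0, from 0.10 for ARR5 on DMSO to 1.11 for ARR4 on DMSO; ARR16 is not shown, nor is ARR6 on DMSO, since both of its signals there were below the floor.

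The additive model averages the genotype effect over the treatments. Its error combines how far the 4 signals depart from additivity (residual degrees of freedom 1) with a variance drawn by eBayes from all probe sets tested. That shared variance has prior degrees of freedom of 5.93 and so weighs more than the gene's own departure. The p-values therefore do not measure a spread between replicates. The averaged genotype effect was 0.81 ± 0.21 (SE, log2) for ARR4, with a limma adjusted p of 0.173. For ARR7 it was 0.78 ± 0.19, with a limma adjusted p of 0.153. ARR5 had an effect of 0.51 ± 0.23 (limma adjusted p 0.426) and ARR9 one of 0.43 ± 0.18 (limma adjusted p 0.390). ARR8 and ARR15 entered with 1 and 2 signals set to the floor, so only their limma adjusted p-values of 0.147 and 0.227 are given. Thus 0 of the 6 members that entered passed an adjusted p of 0.05, which 0.421% of the 13767 probe sets tested did. At an unadjusted limma p below 0.05 there were 5 of 6 members, all but ARR5, and 12.8% of all tested. ARR9 was just below it, at a limma p of 0.0498, and ARR8 is among them with 1 signal at the floor. ARR15, also among them, passed the floor only through as2-1, so its direction was fixed and it lends the count no weight. That count moved with the processing: it was 4 of 6 with the signals as deposited, 3 of 4 with a higher floor (60th percentile), 4 of 8 with a lower one (20th), and 0 of 8, against 7.71% of all, without the filter on dim probe sets. No alternative run gave a genotype call to any member. With the lower floor and without that filter no probe set at all was called for genotype, so those runs say nothing particular to the members.

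The second question was what the TOP1 inhibitor did to the same transcripts. ARR9 was higher on 10H-CPT in both genotypes, by more than 2-fold, and was the only member that rose past the threshold of the limma fit. ARR8, its sister gene, was also higher on the inhibitor in both genotypes. ARR7 had lower signals on 10H-CPT in both genotypes. ARR5 was lower on it in Col-0 and level in as2-1, while ARR4 was lower in as2-1 and level in Col-0.

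ARR9, with 500.4 on 10H-CPT and 218.7 on DMSO in as2-1, was 2.29-fold higher on the inhibitor there. In Col-0, with 409.2 on 10H-CPT and 147.7 on DMSO, it was 2.77-fold higher. Both 10H-CPT arrays were above both DMSO arrays. Changes as large were seen in 2.01% of probe sets measured in as2-1 and in 0.603% of those measured in Col-0. The averaged treatment effect was 1.33 ± 0.18 (SE, log2), or 2.52-fold, with a limma adjusted p of 0.0171. Over 7 alternatives the adjusted p ran from 0.00543 to 0.452, and it was past 0.05 in 2 of them: 0.128 with a lower floor (20th percentile) and 0.452 without the filter on dim probe sets. ARR9 itself had the same 4 values in those 2 fits, and no probe set at all was called there. Its unadjusted limma p nevertheless rose from 0.000161 to 0.00151 and 0.0284, because the variance that eBayes draws from the probe sets tested changed with them.

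ARR8 was 2.05-fold higher on 10H-CPT in as2-1, with signals of 145.7 and 71.1, and at least 1.55-fold higher in Col-0, where the signals were 72.3 on 10H-CPT and 36.9 on DMSO. Its limma adjusted p for treatment was 0.0741, which rests in part on a signal raised to the floor, and 0.0533 to 0.618 over the alternatives. On the log2(signal + 16) scale the difference in as2-1 was 0.89, below 2-fold. ARR6 lay below the floor on both DMSO arrays and just above it on both 10H-CPT arrays, so it was at least 1.26-fold higher on the inhibitor in as2-1 and at least 1.05-fold higher in Col-0. It passed the floor only through 10H-CPT.

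For ARR7, the signal on 10H-CPT was 1.51-fold lower than on DMSO in as2-1 and 1.19-fold lower in Col-0. Its averaged treatment effect was -0.42 ± 0.19 (SE, log2), with a limma adjusted p of 0.310. ARR5 was 1.01-fold lower on the inhibitor in as2-1 and 1.77-fold lower in Col-0. Its averaged effect was -0.42 ± 0.23, adjusted p 0.412 in limma. ARR4 was 1.49-fold lower on the inhibitor in as2-1 and 1.01-fold higher in Col-0, and the averaged effect was -0.28 ± 0.21, adjusted p 0.554 in limma. ARR15 was 1.22-fold lower on 10H-CPT in as2-1 and below the floor on both Col-0 arrays.

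**Figure D3:**
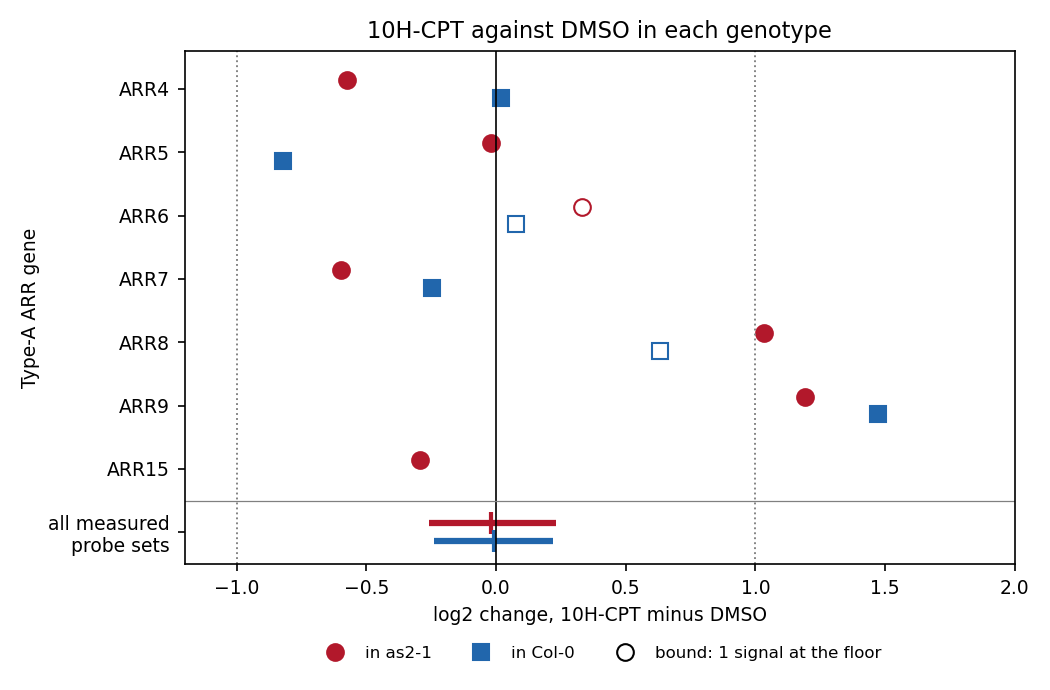
Difference between 10H-CPT and DMSO on the log2 scale (x axis) for the same 7 genes, in as2-1 (circles) and in Col-0 (squares), with open symbols, dotted lines and lowest row as for the genotype. ARR9 lies beyond 2-fold in both genotypes at 1.19 and 1.47, while ARR5 in Col-0 is at -0.82 and ARR4 and ARR7 in as2-1 are at -0.57 and -0.60; ARR15 in Col-0 has no point.

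At the 2-fold threshold, ARR8 and ARR9 were higher on 10H-CPT in as2-1, where 2.96% of measured probe sets were, and ARR9 alone was in Col-0, where 1.55% were. No member was past the threshold downward on the inhibitor, as 2.3% of probe sets were in as2-1 and 2.1% in Col-0. On the log2(signal + 16) scale, the median difference over all 8 members was -0.13 in as2-1 and 0.12 in Col-0, against -0.022 and -0.006 over all probe sets. On that scale 3 were higher on 10H-CPT in both genotypes (ARR6, ARR8 and ARR9), against 27.4% of all probe sets. Another 3 were lower in both (ARR5, ARR7 and ARR16), against 31.7%. Of the 4 members above the floor on every array, 1 was higher on 10H-CPT in both genotypes (ARR9) and 2 were lower in both (ARR7 and, by just -0.02 on the log2 scale in as2-1, ARR5), against 29.5% and 33.2% of such probe sets. In the additive fit 1 of the 6 members that entered was called for treatment, ARR9, and 2.97% of all probe sets tested were called. At an unadjusted limma p below 0.05 there were 2 of 6 members, ARR8 and ARR9, and 17.1% of all tested.

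The treated mutant was also set against the untreated wild type. ARR9 was 3.39-fold higher in treated as2-1 than in untreated Col-0, and for ARR8 the excess was at least 3.12-fold. These were the only members past 2-fold upward, a size reached by 4.27% of measured probe sets, and no member was past it downward, where 3.53% were. With the lower floor ARR15 was also past it upward, and ARR16 was past it downward at -1.04 (log2), with its signal in treated as2-1 set to that floor. ARR4 was 1.45-fold higher, ARR7 1.28-fold and ARR5 1.06-fold. The signal of ARR5 in the treated mutant was thus close to that in untreated wild type. For ARR15 the excess was at least 1.39-fold, and for ARR6 at least 1.26-fold.

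The last comparison asked whether the response to the inhibitor depended on the genotype. With 1 array per group this difference of differences has no test, and no member reached 2-fold in it. Among the 4 genes above the floor on all arrays, it was 0.80 for ARR5, -0.28 for ARR9, -0.35 for ARR7 and -0.59 for ARR4 (log2, the change on 10H-CPT in as2-1 minus that in Col-0). A positive difference as large as that of ARR5 was seen in 4.56% of measured probe sets, and a negative one as large as that of ARR4 in 7.30%. The share of all measured probe sets past 2-fold was 2.59% upward and 1.29% downward.

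Orders of the 4 signals fell into a few kinds. ARR4, ARR7 and ARR15 were highest in as2-1 on DMSO, next in as2-1 on 10H-CPT, with both Col-0 arrays below. ARR8 and ARR9 were highest in as2-1 on 10H-CPT, then in Col-0 on 10H-CPT, as2-1 on DMSO and Col-0 on DMSO. The middle signals of ARR8, 72.3 in Col-0 on 10H-CPT and 71.1 in as2-1 on DMSO, were nearly equal. ARR5 had the same order of arrays as ARR7, but the signals other than that of Col-0 on 10H-CPT lay between 154.0 and 165.4. No spread between replicates is available to say which neighbours in these orders differ.

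ARR9 had the widest range of the members above the floor on all arrays. Its pattern was compared with 6845 probe sets of 1 named gene that cleared the floor on every array, by the Euclidean distance between log2 signals centred over the arrays. The closest were AT1G48750 at a distance of 0.202, AT5G67460 at 0.221, AT5G44720 at 0.230, AT4G23680 at 0.232 and AT1G27480 at 0.254. AT1G48750, for example, had 832.5 on 10H-CPT and 399.4 on DMSO in as2-1, against 810.4 and 248.8 in Col-0. Among the other members above the floor on every array, ARR4 was nearest to ARR9, at 1.66. It ranked only 9775 of 12716 probe sets by that distance, so its pattern was not like that of ARR9. With signals below the floor taken as they are, a choice made after seeing the data, ARR8 was at 0.664 from ARR9, ARR6 at 0.809 and ARR15 at 1.60.

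Of 92 other genes listed for the cytokinin pathway, the meristem, the design and other tissues, 6 had a named probe set. Among the pathway genes, 2 cytokinin N-glucosyltransferases, enzymes that inactivate cytokinin by conjugation, were above the floor on all arrays. UGT76C2 had signals of 103.9 on 10H-CPT and 110.5 on DMSO in as2-1, against 58.1 and 61.5 in Col-0. Both as2-1 signals were above both Col-0 signals, a separation not counted over all probe sets, and the treatments hardly differed. Its excess in as2-1 was 1.79-fold on 10H-CPT and 1.80-fold on DMSO, and 0.646% of probe sets measured in both treatments were as much higher in both. Its averaged genotype effect was 0.84 ± 0.17 (SE, log2), with a limma adjusted p of 0.109, which did not pass. UGT76C1 had 161.2 and 125.1 in as2-1, against 99.5 and 104.1 in Col-0, and was 1.62-fold and 1.20-fold higher in as2-1, with a limma adjusted p of 0.361. As much higher as UGT76C1 in both treatments were 7.91% of probe sets. The type-B gene ARR18 and the type-C gene ARR22 were below the floor on all 4 arrays, at 1.3 to 9.9 and 0.9 to 2.6. Neither of the enzymes was past 2-fold in any comparison.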

How the data were processed

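Biotinylated cRNA from total RNA of shoot apices was hybridised to Affymetrix arrays, per the labels' protocols. The deposited intensity values are linear MAS5 signals, per the submitters' processing notes; neither a version nor a scaling target is given in the sources used here. Trimmed means of the arrays were 198.3 to 198.5, and the arrays were rescaled by 0.9994 to 1.0006. Signals below the 40th percentile (46.6) were set to it before log2. The number of arrays limits precision.

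Members and gene lists were chosen with earlier results of these data known. All 8 members are named, and up to 3 genes of each other list. The additive model, with genotype and treatment, was fitted with limma 3.58.1 (R 4.3.3) over 13767 probe sets with mean signal above the floor. It used eBayes (prior degrees of freedom 5.93) and Benjamini-Hochberg adjustment. A run on simulated data, with independent noise and no signals set to the floor, served to see that a known effect was recovered. That run cannot check p-values from unreplicated arrays. Nothing in the labels says whether samples came from separate cultures. Python 3.11.15, numpy 2.4.6, pandas 2.3.3 and matplotlib 3.10.9 made counts and figures. The platform annotation names 1 gene for 13513 probe sets, several for 503, and lists none for 8730. The genes most like ARR9 were the 5 at the smallest distance. Alternatives were no rescaling, quantile normalization, a lower floor (20th percentile) or a higher one (60th), log2(signal + 16), other thresholds (1.5-fold and 3-fold), trend and robust eBayes, and a fit of every probe set, dim ones included.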

Additional observations from a re-analysis of the deposited data

How the results depend on the processing

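No paired analysis was possible because each group has 1 array. No called change between arrays turned its sign under any alternative run, but the counts of members past 2-fold are small and moved with single genes. These counts take both directions together. The share of all probe sets past each threshold was not counted for the alternative runs. The counts from those runs are therefore no result about the members. For as2-1 against Col-0 on DMSO (1 member), the count was 2 with the lower floor (20th percentile) and on the log2(signal + 16) scale, 4 at 1.5-fold and 0 at 3-fold. For as2-1 against Col-0 on 10H-CPT (1), it was 2 with the lower floor, 3 at 1.5-fold, and 0 after quantile normalization, with the higher floor (60th percentile), on the log2(signal + 16) scale and at 3-fold. For 10H-CPT against DMSO in as2-1 (2), it was 1 with the higher floor and on the log2(signal + 16) scale. It was 3 at 1.5-fold (ARR8 and ARR9 higher, ARR7 lower) and 0 at 3-fold. In Col-0 (1), it was 3 at 1.5-fold (ARR8, as a lower bound, and ARR9 higher, ARR5 lower) and 0 at 3-fold. For the treated mutant against untreated wild type (2), it was 4 with the lower floor (ARR8, ARR9 and ARR15 higher, ARR16 lower) and 1 with the higher. For the difference of the inhibitor effects (0), it was 2 at 1.5-fold (ARR5 positive, ARR4 negative). With the lower floor (9.9), the ARR15 signals of Col-0 lay above it, and ARR15 was 1.65 higher in as2-1 on DMSO and 1.01 higher on 10H-CPT (log2). With the higher floor (137.3), ARR8 was above it on 1 array only, and its differences became bounds of 0.085. The ARR5 signal of Col-0 on 10H-CPT was then set to the floor too: its difference in as2-1 on 10H-CPT was 0.25 (0.91 with the floor used here), that on 10H-CPT in Col-0 was -0.16 (-0.82), the difference of its inhibitor effects was 0.14 (0.80) and its fitted genotype effect was 0.18 (0.51). The treatment call of ARR9 was lost with the lower floor and without the filter on dim probe sets, where 0 members were called. Both fits test more dim probe sets (18162 and 22746) and call none, although 2586 and 2175 had an unadjusted limma p below 0.05. The unadjusted limma p of ARR9 also rose there, to 0.00151 and 0.0284. The fitted treatment effect of ARR15 was 0.027 with the lower floor and -0.15 with 2 signals set to the floor used here; neither passed. Members higher in as2-1 in both treatments numbered 6 with the floor used here (of 6 measured, ARR15 only through as2-1), 6 of 8 with the lower floor and on the log2(signal + 16) scale, and 4 of 4 with the higher; this count and its alternatives were chosen after seeing the data.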
